A study of Mus musculus with 14 samples.

Results

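The genes described here are those of thyroid hormone carriage, activation and reception in pancreatic islets of high-fat-fed mice: the plasma carriers Serpina7 and Ttr, the deiodinases Dio1, Dio2 and Dio3, and the nuclear receptors Thra and Thrb. A gene was taken where the array holds a probe set annotated with its symbol alone, which held for 6 of the 7 genes, out of 18820 genes measured. Thra was not analysed here, because its probe sets also carry the symbol of another gene. Each of the other 6 has a single such probe set. The set was chosen by the measured difference of Dio1 between genotypes at 5 weeks, which had been seen in these arrays before; that difference, and those of Dio1 that share its arrays, are described with no test.

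Islet RNA of 14 mice was measured with 1 array per mouse. Wild-type (WT) mice were C57BL/6. Double-knockout (DKO) mice lacked Tlr2 and Tlr4, the innate receptors for bacterial lipopeptides and lipopolysaccharide, on a C57BL/6 background. Every group ate a diet with 60% fat, begun at 6 weeks of age, and was bred and housed under specific pathogen-free conditions; mice on another diet were not analysed here. Islets were taken after 5 weeks on the diet (4 WT and 2 DKO mice) or after 7 months (4 WT and 4 DKO mice), so time on the diet and age cannot be told apart. Whether DKO and WT mice were littermates is not stated. Values are log2 signals normalised by RMA, an array method that corrects background, normalises arrays and summarises the probes of a gene. A difference of 1 on this scale is a 2-fold change in signal.

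Thyroid hormone leaves the thyroid mostly as thyroxine, a prohormone carried in plasma by thyroxine-binding globulin, transthyretin and albumin. Inside cells the deiodinases, selenoenzymes with selenocysteine at the active site, remove iodine: DIO2 and DIO1 make the active triiodothyronine, and DIO3 inactivates both hormones. Triiodothyronine then binds the nuclear receptors encoded by Thra and Thrb, which act on promoters as partners of retinoid X receptors. In islets, thyroid hormone is known to act on beta cell growth and maturation, and transthyretin is made by alpha cells.

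Of the targeted genes, Tlr2 was lower in DKO than in WT islets, with differences of -1.66 ± 0.12 (SE) at 5 weeks and -1.06 ± 0.10 at 7 months (limma adjusted p = 9.71e-06 and 1.61e-05). Tlr4 was dim and did not pass (0.35 and 0.31; adjusted p = 0.506 and 0.331), and no label says whether either probe set lies in a deleted stretch. The islet hormones were bright in every group: mean Ins2 lay between 11.88 and 11.91, Gcg between 12.09 and 12.95, and Sst between 11.74 and 12.88. Array medians lay between 3.89 and 3.98. Replicate 2 of DKO at 7 months read lower than its group in Serpina7 and Ttr, with gaps within Dixon's limit for outliers, and had the lowest array weight in limma (0.542, against 0.695 to 1.51 for the other arrays), so calls that change without it are given both ways. As that array was singled out partly by its values of Serpina7 and Ttr, fits without it are no separate support for a call. Whatever the letters in the sample descriptions stand for, each goes with a group and cannot be told apart from it.

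The start regions of Dio1 and Serpina7 are shown because these were the members whose signals moved most. Each sequence is the RefSeq promoter window in build GRCm38.p6, from 250 bases before to 50 bases after the annotated start, written 5′ to 3′ on the gene's own strand. Capitals mark matches to 3 motifs searched on both strands: AGGTCA, the half-site of nuclear receptors, GTTAAT, a half-site of the liver and islet factor HNF1, and TATAAA, the TATA box. The motif letters do not overlap in these windows.
Dio1, chr4:107307119-107307418, minus strand: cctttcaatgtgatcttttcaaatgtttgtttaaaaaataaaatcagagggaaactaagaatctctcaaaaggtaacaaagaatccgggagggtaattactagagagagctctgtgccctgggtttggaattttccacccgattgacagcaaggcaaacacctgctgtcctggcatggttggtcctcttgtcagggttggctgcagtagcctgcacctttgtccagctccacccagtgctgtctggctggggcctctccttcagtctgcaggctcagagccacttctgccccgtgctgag
Serpina7, chrX:139085187-139085486, minus strand, the first of 2 overlapping windows: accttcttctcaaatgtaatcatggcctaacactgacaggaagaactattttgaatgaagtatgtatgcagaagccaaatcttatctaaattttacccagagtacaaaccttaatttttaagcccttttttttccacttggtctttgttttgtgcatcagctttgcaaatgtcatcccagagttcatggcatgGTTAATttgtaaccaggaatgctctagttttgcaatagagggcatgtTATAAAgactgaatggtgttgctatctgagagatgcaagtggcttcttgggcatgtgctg
The Dio1 window held none of the 3 motifs and had a GC content of 49.7%. The Serpina7 window held GTTAAT from base 194 and TATAAA from base 241, with a GC content of 38.3%. Of all 32851 promoter windows of 300 bases, 7.1% held GTTAAT, 13.6% TATAAA and 16.3% AGGTCA, counting both strands. A match describes these letters only and is no evidence of binding.

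Serpina7, which encodes thyroxine-binding globulin, was the member that changed most with time on the diet and the only member called for genotype at 7 months. The WT islets at 5 weeks read 6.25, 5.68, 5.84 and 5.90, and the DKO islets 6.06 and 6.25. At 7 months the WT islets read 7.09, 7.40, 7.62 and 7.65, and the DKO islets 8.87, 7.57, 9.53 and 8.92. All 8 arrays at 7 months were thus above all 6 at 5 weeks, and within 7 months 3 of the 4 DKO arrays were above every WT array, while DKO replicate 2 lay among the WT arrays.

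In WT islets Serpina7 rose by 1.52 ± 0.30 between 5 weeks and 7 months (2.87-fold; limma adjusted p = 0.0134; the exact two-sided permutation p was 0.0286, the smallest that 4 against 4 arrays allow). It was 1 of 6 members called, where 2.37% of all genes passed. In DKO islets it rose by 2.56 ± 0.36 (5.91-fold; limma adjusted p = 0.000689; exact permutation p = 0.0667, the smallest that 2 against 4 allow). Both rises passed under all 25 alternative settings of the model. The difference between the rises was 1.04 ± 0.47 and did not pass (adjusted p = 0.472). It passed without DKO replicate 2 of 7 months, at 1.43 (adjusted p = 0.027).

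Between genotypes, Serpina7 at 5 weeks differed by 0.24 ± 0.36 (95% interval -0.53 to 1.01, limma adjusted p = 0.87), with overlapping groups. The SE pools unequal spreads: the SD was 0.24 in WT and 0.14 in DKO islets at 5 weeks, and 0.83 in DKO islets at 7 months. With only the arrays compared in the fit the SE at 5 weeks was 0.16 (limma adjusted p = 0.596). At 7 months Serpina7 was higher in DKO islets by 1.28 ± 0.30 (2.43-fold, limma adjusted p = 0.0223). It was the 1 call among 6 members where 4.71% of all genes passed. With groups that overlap, the exact permutation p was 0.0857. The call rested on small margins: it was lost in 7 of 25 alternatives, with adjusted p between 0.0511 and 0.086 in those, among them each fit without WT replicate 1 or 2 or without DKO replicate 1, 3 or 4. Without DKO replicate 2 the difference was 1.67. Arrays whose description label holds the number 5 differed by 1.84 and those with the number 7 by 0.72, both in the same direction.

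Fewer cells of a type and less RNA per cell cannot be told apart in whole islets, and several markers of other cells differed between genotypes at 7 months, as Serpina7 did. Of 8 stellate and fibroblast markers 6 were higher in DKO islets, their mean level relative to the 14-array average being 0.27 to 1.06 in DKO and -0.56 to -0.29 in WT arrays. Of 8 macrophage markers 4 were higher (0.14 to 0.85 in DKO, -0.14 to -0.03 in WT arrays), and of 4 alpha cell markers 3 were lower. Of 5 delta and PP cell markers 4 were lower. Of 8 endothelial markers 2 were higher and 1 lower, and of 5 duct cell markers 1 was lower. Of all genes 4.71% passed in this comparison. In DKO replicate 2 the stellate and macrophage means were 0.33 and 0.28, inside the ranges of the DKO arrays. Of 9 beta cell markers none passed by limma at 7 months (3 at an unadjusted p under 0.05); their mean was 0.12 in replicate 2 and -0.19 to -0.16 in the other 3 DKO arrays. With time in WT islets, 3 of 4 alpha cell, 1 of 5 delta and PP cell and 2 of 8 stellate markers fell. There 2 of 8 endothelial markers rose, and 2.37% of all genes passed. In DKO islets all 4 alpha and 4 of 5 delta and PP cell markers fell. In those islets 2 of 8 stellate, 4 of 8 macrophage and 4 of 8 endothelial markers rose. Of 5 duct cell markers 1 rose and 1 fell there, and 7.57% of all genes passed. The part of these cell types in the Serpina7 differences was not tested. None of 14 acinar markers passed by limma in any comparison, with 2 at an unadjusted p under 0.05 for genotype at either time. Their median difference at 7 months was nevertheless 1.06, higher in DKO islets. Their mean level was 0.01 to 0.43 in DKO and -2.39 to 0.84 in WT arrays of that time. With this mean level in the model the Serpina7 difference at 7 months was 1.31 (limma adjusted p = 0.0511).

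Liver cells are the best-known source of thyroxine-binding globulin, so their markers were read beside it. Of 11 hepatocyte markers none passed between times in WT islets by limma, also at an unadjusted p under 0.05 (0 of 11). In DKO islets 1 rose with time, Apob (1.57 ± 0.37, limma adjusted p = 0.019), and 2 of 11 had an unadjusted p under 0.05. Between genotypes 1 was lower in DKO islets at 5 weeks (Apoa2, -1.02, adjusted p = 0.02), and at 7 months 1 was higher in DKO islets (Apob) and 1 lower (Apoa2, -1.65). Albumin, Alb, had group means of 3.17 to 3.52 and Ahsg, encoding fetuin-A, of 2.27 to 2.66, all below the array medians. Mean Apob in DKO islets at 5 weeks, 2.95, was also below them, so the size of its rise there is not exact. The mean of the list was -0.04 to 0.31 in WT and -0.16 to 0.01 in DKO arrays at 7 months. Serpina7 lies on the X chromosome, and the X- and Y-linked genes that tell the sexes apart were alike in all 14 arrays: Xist read at most 2.48, Kdm5d 5.99 to 6.61 and Eif2s3y 7.00 to 7.64.

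**Figure D1:**
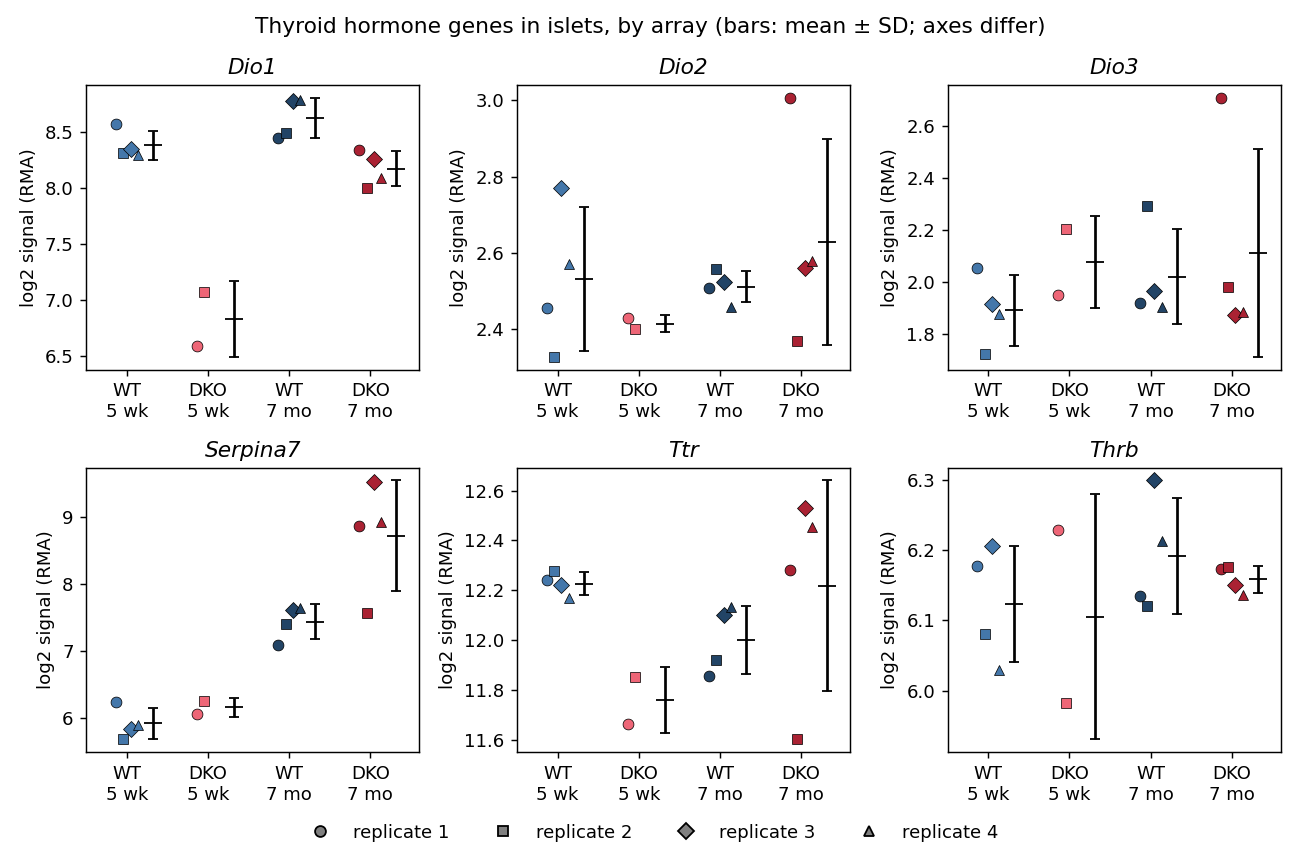
Log2 RMA signal (y axes, which differ in range) of the 6 measured genes in each group of mice (x axes); each point is 1 array, its shape gives the replicate number, and bars are the mean ± SD. Dio1 is lowest in the 2 DKO arrays at 5 weeks (6.59 and 7.07), and Serpina7 is above 7 in all arrays at 7 months and below it in all at 5 weeks.

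Ttr encodes transthyretin, the carrier of thyroxine that also carries retinol together with RBP4. Its signal was very bright and no comparison passed across all 14 arrays. The values were 12.24, 12.28, 12.22 and 12.17 in WT islets and 11.67 and 11.85 in DKO islets at 5 weeks. They were 11.86, 11.92, 12.10 and 12.13 in WT islets and 12.28, 11.60, 12.53 and 12.46 in DKO islets at 7 months. The WT arrays at 5 weeks lay above both the DKO arrays of that age and the WT arrays of 7 months without overlap. DKO replicate 2 at 7 months was the lowest of all 14 arrays, and the other 3 DKO arrays of that group were at or above the highest WT array at 5 weeks.

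DKO minus WT for Ttr was -0.47 ± 0.19 at the earlier time (adjusted p = 0.334 by limma; 0.0667, the smallest possible, by the exact permutation test) and 0.22 ± 0.16 at 7 months (adjusted p = 0.517). Between times it was -0.22 ± 0.16 in WT islets (adjusted p = 0.567; exact permutation p = 0.0286, the smallest possible) and 0.46 ± 0.19 in DKO islets (adjusted p = 0.182), and the interaction was 0.68 ± 0.25 (adjusted p = 0.343). Without DKO replicate 2 the genotype difference at 7 months was 0.42 (adjusted p = 0.0144), the difference between times in DKO islets 0.66 (0.00235) and the interaction 0.89 (0.0121). A single array therefore set whether Ttr was called. It was singled out partly for its low Ttr value, so the fits without it are no separate support for a call. At the same time, alpha cell markers, of which Irx1, Irx2 and Gcg were lower in DKO islets at 7 months, had a mean level of -0.97 to -0.60 in DKO and -0.29 to 0.00 in WT arrays. Their part in the values of Ttr was not tested.

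Dio1 encodes the type 1 deiodinase, best known from liver, kidney and thyroid. At 5 weeks the WT islets read 8.58, 8.31, 8.35 and 8.30, and the DKO islets 6.59 and 7.07. At 7 months the WT islets read 8.45, 8.49, 8.78 and 8.79, and the DKO islets 8.35, 8.01, 8.26 and 8.09. The DKO arrays were below all WT arrays of the same time at both times, by a wide gap at 5 weeks and a narrow one at 7 months.

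Dio1 was 1.55 ± 0.15 lower in DKO than in WT islets at 5 weeks, a 2.93-fold difference known when the gene was chosen. It was the 1 called member of 6 there, beside 0.994% of all genes, and nothing is read from that count. Arrays with the label number 5 differed by -1.87 and those with 7 by -1.24, each from 1 DKO array against 2 WT arrays. In DKO islets the signal at 7 months was 1.35 ± 0.15 above that at 5 weeks (2.54-fold), and the interaction of genotype and time was 1.10 ± 0.20. Leaving Dio1 aside, Serpina7 was the 1 member of the other 5 called between times in DKO islets, where 7.57% of all genes passed. None of those 5 was called by limma in the interaction, where 0.0903% of all genes passed; Serpina7 and Ttr had unadjusted p of 0.042 and 0.0155 there.

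Dio1 at 7 months, on arrays that did not enter that choice, was 0.45 ± 0.12 lower in DKO islets, just short of the threshold (limma adjusted p = 0.0514, 95% interval -0.71 to -0.19, exact permutation p = 0.0286, the smallest possible). The exact permutation p uses the arrays of 7 months alone. The SE, the interval and the limma p use a spread pooled over all 14 arrays, those of 5 weeks included. Over the alternative settings the adjusted p ran from 0.0219 to 0.144, and it passed in 6 of 25. The differences were -0.31 and -0.59 for arrays with label numbers 5 and 7. In WT islets, whose arrays at 5 weeks entered the choice, the signal at 7 months differed from that at 5 weeks by 0.24 ± 0.12, with overlapping groups and no test. In rising order the groups stood as DKO at 5 weeks, DKO at 7 months, WT at 5 weeks and WT at 7 months, and of these neighbours only the first pair did not overlap. None of the 14 acinar markers passed at 5 weeks; their mean level was 0.86 to 1.27 in DKO and -1.53 to 0.59 in WT arrays, and their part in the Dio1 values was not tested.

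Dio2, the activating deiodinase of brown fat, pituitary and brain, and Dio3, the inactivating deiodinase, were dim: both lay below the array median in all 14 arrays. Dio2 ranged from 2.33 to 2.77 in WT and from 2.40 to 2.43 in DKO islets at 5 weeks, and from 2.46 to 2.56 in WT and from 2.37 to 3.01 in DKO islets at 7 months. Dio3 ranged from 1.72 to 2.05 and from 1.95 to 2.20 at 5 weeks, and from 1.90 to 2.29 and from 1.87 to 2.71 at 7 months, in WT and DKO islets. The WT and DKO arrays of either time overlapped, and for Dio2 the DKO arrays of 5 weeks lay just below the WT arrays of 7 months without overlap. The highest value of either gene was in replicate 1 of DKO at 7 months. Genotype differences of Dio2 were -0.12 ± 0.15 at 5 weeks (limma adjusted p = 0.842) and 0.12 ± 0.12 at 7 months (adjusted p = 0.674). Those of Dio3 were 0.19 ± 0.20 (adjusted p = 0.798) and 0.09 ± 0.16 (adjusted p = 0.822). Between times Dio2 differed by -0.02 ± 0.12 in WT and 0.21 ± 0.15 in DKO islets, and Dio3 by 0.13 ± 0.16 and 0.04 ± 0.20 (adjusted p from 0.45 to 0.967). At signals this low the sizes of differences are not exact.

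Thrb encodes the beta receptor of thyroid hormone and had the narrowest range of the 6 genes. It read 6.18, 6.08, 6.21 and 6.03 in WT and 6.23 and 5.98 in DKO islets at 5 weeks, and 6.13, 6.12, 6.30 and 6.21 in WT and 6.17, 6.18, 6.15 and 6.14 in DKO islets at 7 months. The 4 groups overlapped, with means from 6.11 to 6.19. Genotype differences were -0.02 ± 0.10 at 5 weeks (95% interval -0.22 to 0.19, limma adjusted p = 0.972) and -0.03 ± 0.08 at 7 months (-0.20 to 0.14, adjusted p = 0.874). Time differences were 0.07 ± 0.08 in WT and 0.05 ± 0.10 in DKO islets (adjusted p = 0.765 and 0.812).

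**Figure D2:**
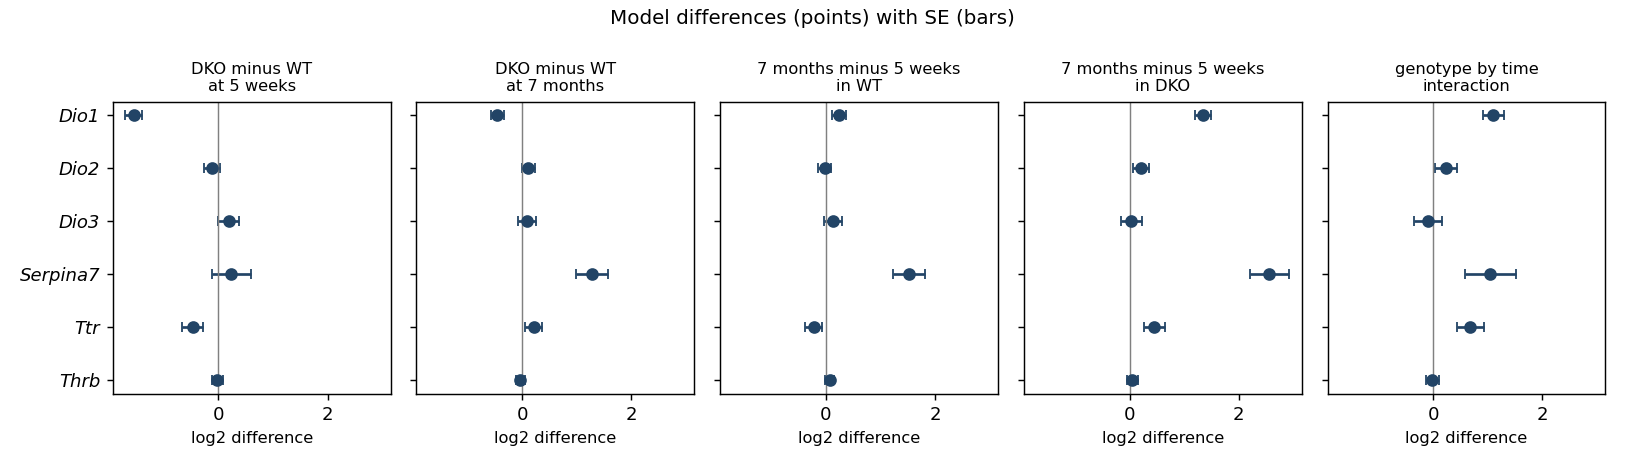
Differences in log2 signal (x axes, 1 panel for each of the 5 comparisons) for the 6 genes (y axis); points are the values of the linear model and bars their SE. Serpina7 lies to the right of 0 in the comparisons of time and in that of genotype at 7 months, Dio1 to the left of 0 for genotype at both times, and Thrb within 0.07 of 0 in all 5.

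Genes next to the members on the chromosome were read beside them. Of the 6 nearest measured genes around Dio1 (Ldlrad1, Lrrc42, Hspb11, Yipf1, Ndc1 and Glis1) none passed by limma for genotype (0 at 5 weeks and 1 at 7 months at an unadjusted p under 0.05), with differences from -0.14 to 0.28 at 5 weeks and from -0.17 to 0.25 at 7 months. Ldlrad1 fell by 0.54 between times in DKO islets (limma adjusted p = 0.0306), where Dio1 was higher. None of the 6 around Serpina7 passed by limma in any comparison (at most 3, in WT islets over time, at an unadjusted p under 0.05), with -0.07 to 0.15 for genotype at 7 months and -0.11 to 0.21 for time in DKO islets. Of the neighbours of the other members, Ppp2r5c beside Dio3 was higher in DKO islets at 7 months (0.54, adjusted p = 0.0478), and Ppp2r5c, Rarb and Nkiras1 rose between times in DKO islets (0.68, 0.80 and 0.93). Rarb, a retinoic acid receptor gene, and Nkiras1 lie on either side of Thrb, whose own difference there was 0.05.

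The profiles most like those of the called members over the 14 arrays were ranked by the root mean square difference of log2 signals, each gene centred on its own mean. For Dio1, whose own spread around its mean was 0.59, these were Loxl2 (0.21), a lysyl oxidase, Glt1d1 (0.21), a glycosyltransferase, Anpep (0.26), an aminopeptidase of cell membranes, F8 (0.27), coagulation factor VIII, and Stpg2 (0.29). All 5 were lowest in DKO islets at 5 weeks, from -1.35 for Glt1d1 to -0.72 for Stpg2, and highest in WT islets at 7 months, from 0.24 to 0.45.

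For Serpina7, with a spread of 1.21, they were Shc4 (0.43), an adaptor protein, Derl3 (0.46), a factor of protein degradation at the endoplasmic reticulum, Gucy2c (0.49), the guanylin receptor, Kdelr3 (0.49), a retrieval receptor of the endoplasmic reticulum, and Rapgef5 (0.50). All 5 had their highest group mean in DKO islets at 7 months, from 1.08 to 1.31. In replicate 2 of that group they were lower, from -0.16 for Kdelr3 to 0.69 for Rapgef5, as Serpina7 was. The genes beside Dio1 and Serpina7 were picked for likeness over these same arrays, so the shared pattern was set by the choice. The arrays also share genotype, time and RNA source, and a like profile is a description only.

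**Figure D3:**
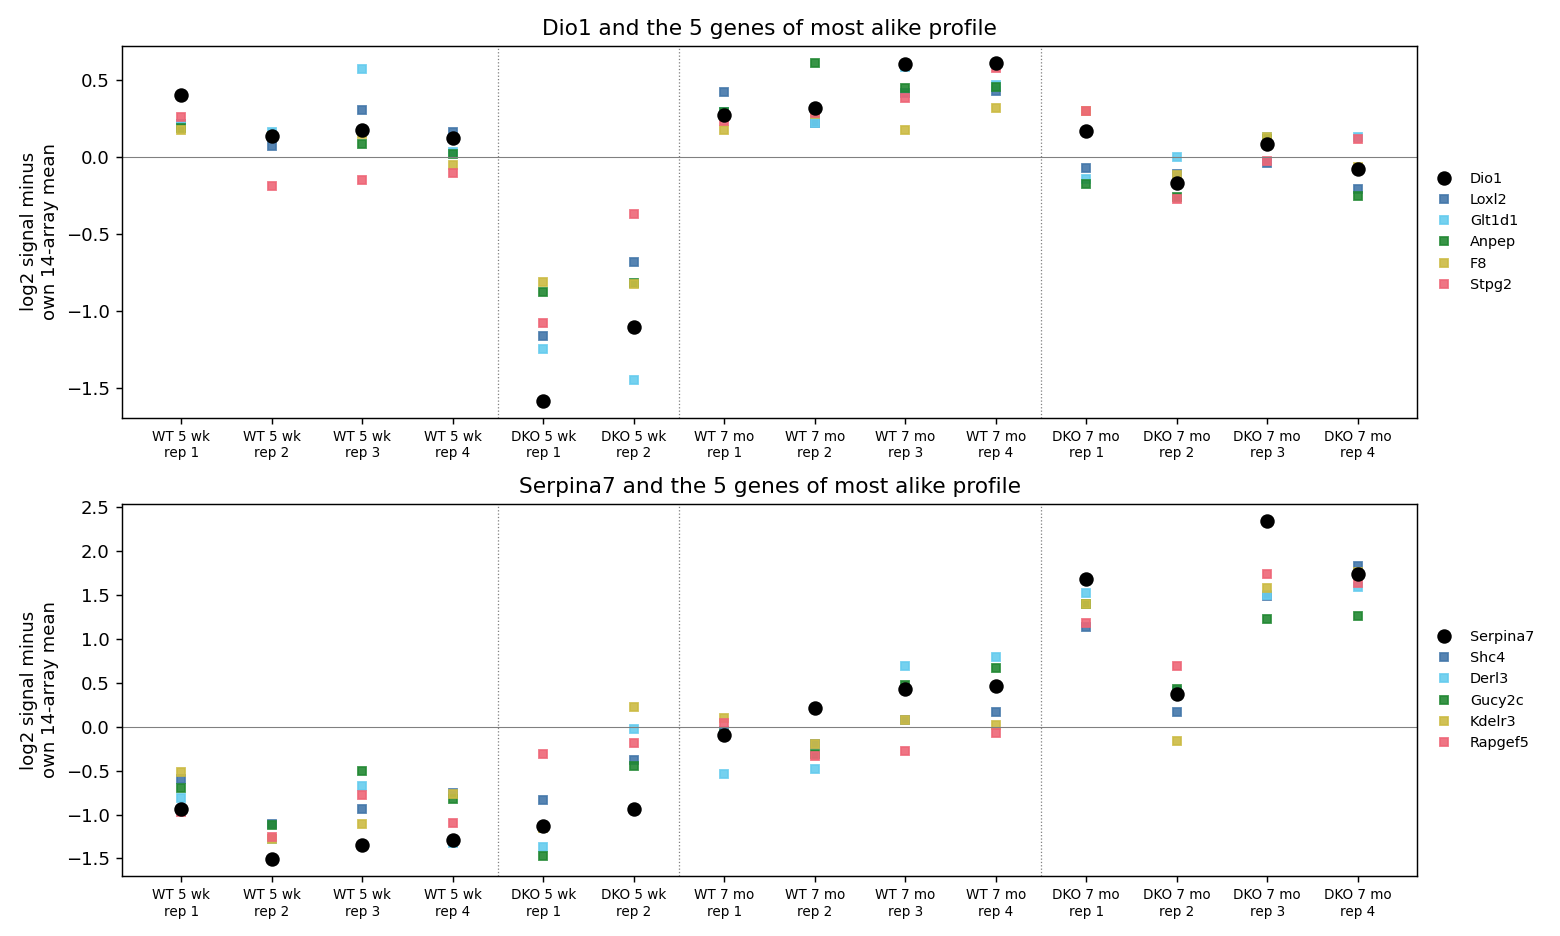
Log2 signal minus the gene's own mean over 14 arrays (y axes) in each array (x axes) for Dio1 (top) and Serpina7 (bottom), as black circles, with the 5 genes of most alike profile, as squares. The squares were picked for likeness over these same arrays, so that they follow the circles is set by the choice. They follow Dio1 down in the 2 DKO arrays at 5 weeks. Replicate 2 of DKO at 7 months is below its group in the lower panel.

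The other genes of the pathway were read from 8 lists, 77 of 88 genes being measured. At 5 weeks 1 of 77 passed for genotype (1.3%), a fall, beside 0.494% of all genes that fell. At 7 months 9 passed (11.7%, beside 4.71% of all genes): 3 were higher in DKO islets, as 2.44% of all genes were, and 6 lower, as 2.27% were. Between times 1 fell in WT islets (1.3%, beside 1.01% of all genes that fell). In DKO islets 6 passed (7.79%, beside 7.57%): 3 rose, beside 4.86%, and 3 fell, beside 2.7% of all genes. In the interaction 2 passed (2.6%), both negative, beside 0.0638% of all genes. The lists were chosen with earlier results of these data known, so nothing is read from these shares. The median difference of the 77 was -0.01 for genotype at either time, against 0.01 for all genes. The count of 9 was 4 when only the arrays compared were fitted and 15 with a trended robust prior, and it was 4 or 5 without WT replicate 1 or 2 or DKO replicate 3, and 15 without DKO replicate 2. The 6 in DKO islets became 2 without replicate 1 of DKO at 5 weeks.

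Among the plasma carriers and their partners, Rbp4, the retinol carrier that binds transthyretin, fell with time in both genotypes. It read 9.17 to 9.55 in WT and 9.14 and 9.25 in DKO islets at 5 weeks, 8.004, 8.67, 8.35 and 8.47 in WT islets at 7 months, and 6.62, 6.70, 6.21 and 6.33 in DKO islets at 7 months. The groups of 7 months overlapped neither each other nor those of 5 weeks. The difference of Rbp4 between times was -1.002 ± 0.14 in WT (limma adjusted p = 0.00159) and -2.73 ± 0.17 in DKO islets (adjusted p = 1.02e-06), and that of genotype at 7 months -1.91 ± 0.14 (adjusted p = 2.53e-06). The fall was larger in DKO islets, with an interaction of -1.73 ± 0.23 (adjusted p = 0.0172; 0.0677 without replicate 1 of DKO at 5 weeks). Rbp4 is also a marker of delta cells, and 4 of 5 delta and PP cell markers were lower at 7 months in DKO islets, Rbp4 itself among them; the part of these cells was not tested. Apob, an apolipoprotein, was higher in DKO islets at 7 months by 1.20 ± 0.30 (adjusted p = 0.0363), with its lowest DKO value, 3.35, again in replicate 2; the call held in 15 of 24 alternatives. Its interaction of 1.22 ± 0.48 did not pass (limma adjusted p = 0.388), but without that replicate it was 1.61 (limma adjusted p = 0.0208). Mean Apob was 2.97 in WT and 2.95 in DKO islets at 5 weeks, and 3.33 in WT islets at 7 months. These means lay below the array medians, so the sizes of its differences are not exact.

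Of 15 measured genes known to respond to triiodothyronine, 2 were higher and 3 lower in DKO islets at 7 months. Of all genes 2.44% were higher and 2.27% lower there. This list too was chosen with earlier results of these data known, so nothing is read from its count. Ppargc1a, the coactivator of mitochondrial biogenesis, read 6.79, 6.84, 6.69 and 6.48 in WT and 3.47, 4.66, 2.99 and 3.88 in DKO islets, which did not overlap. It was lower in DKO by 2.95 ± 0.25 (limma adjusted p = 6.87e-06), and since its DKO mean, 3.75, was below the array medians the size is not exact. Gpd2, the mitochondrial glycerol-phosphate dehydrogenase of the glycerol phosphate shuttle, was lower by 0.98 ± 0.11 at 7 months (adjusted p = 8.67e-05) and by 0.68 ± 0.13 at 5 weeks (adjusted p = 0.021). The first call passed under all 25 alternatives and the second under 19, with adjusted p from 0.0542 to 0.12 without WT replicate 2 or 3 or without either DKO replicate.

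Thrsp, encoding the lipogenic protein Spot 14, was higher in DKO islets at 7 months, at 5.68, 5.55, 5.66 and 5.35 against 4.86, 4.80, 5.21 and 4.80 in WT islets (0.64 ± 0.12, limma adjusted p = 0.00513). Me1, the malic enzyme that supplies NADPH to fat synthesis, was higher by 0.33 ± 0.08 (adjusted p = 0.0239, passing in 18 of 25 alternatives). Atp2a2, the calcium pump of the endoplasmic reticulum, was lower by 0.31 ± 0.08 (adjusted p = 0.0344). Gpd2 between times in DKO islets was at -0.41 ± 0.13 (adjusted p = 0.0753), and at -0.50 without replicate 2 of 7 months (adjusted p = 0.0179). Between times in DKO islets Ppargc1a fell by 2.05 ± 0.31 (adjusted p = 0.00107), and its interaction was -2.52 ± 0.40 (adjusted p = 0.0197), which was lost in 7 of 24 alternatives, up to 0.201 without replicate 1 of DKO at 5 weeks.

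None of 9 membrane transporters of thyroid hormone passed by limma in any comparison, with 2 at an unadjusted p under 0.05 for genotype at each time. The smallest p values belonged to Slc16a10, the aromatic amino acid and triiodothyronine transporter, at -0.30 ± 0.11 for genotype at 5 weeks (limma adjusted p = 0.243), and Slc3a2, the heavy chain of the amino acid transporter that also carries thyroid hormone, at 0.37 ± 0.11 at 7 months (adjusted p = 0.0779). Of 15 genes of the thyroid axis and hormone synthesis none passed either, with at most 2 at an unadjusted p under 0.05 in a comparison; Tshb, the thyrotropin beta chain, and Slc26a4, pendrin, had group means of at most 2.45, below the array medians. Of 5 genes of cytosolic binding and conjugation 1 passed, Aldh1a1, a retinal dehydrogenase, which rose by 0.99 ± 0.28 between times in DKO islets (adjusted p = 0.0414, passing in 9 of 24 alternatives). Without replicate 1 of DKO at 5 weeks the rise was 0.47 (adjusted p = 0.524) and without replicate 2 it was 1.51 (adjusted p = 0.0102). Without DKO replicate 2 of 7 months it was 0.97 (adjusted p = 0.0547). As both group means, 2.85 and 3.84, were below the array medians its size is not exact. Of all genes 7.57% passed between times in DKO islets, and nothing is read from the count of this list.

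Deiodinases need the selenocysteine machinery. Of its 6 genes 1 passed: Sepsecs, which makes selenocysteine on its transfer RNA, was lower in DKO islets at 7 months by 0.43 ± 0.11 (limma adjusted p = 0.034, passing in 17 of 25 alternatives), and the difference at 5 weeks was -0.44 ± 0.13 (adjusted p = 0.157). Of 10 other selenoprotein genes 1 passed, Selenos, a selenoprotein of the endoplasmic reticulum membrane, which rose between times in DKO islets by 0.74 ± 0.19 (adjusted p = 0.0311, passing in 17 of 25 alternatives). Its genotype difference at 7 months was 0.57 ± 0.16 (adjusted p = 0.0532), and 0.76 without DKO replicate 2 (adjusted p = 0.0012). Of 13 receptor partners and cofactors 1 passed, the acetyltransferase gene Ep300. It was lower in DKO islets at 7 months by 0.33 ± 0.08 (limma adjusted p = 0.0311, passing in 15 of 25 alternatives). Between times in DKO islets it fell by 0.47 ± 0.10 (limma adjusted p = 0.0101, passing in 23 of 25). Of all genes 4.71% passed for genotype at 7 months and 7.57% between times in DKO islets. Nothing is read from the counts of these lists.

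**Figure D4:**
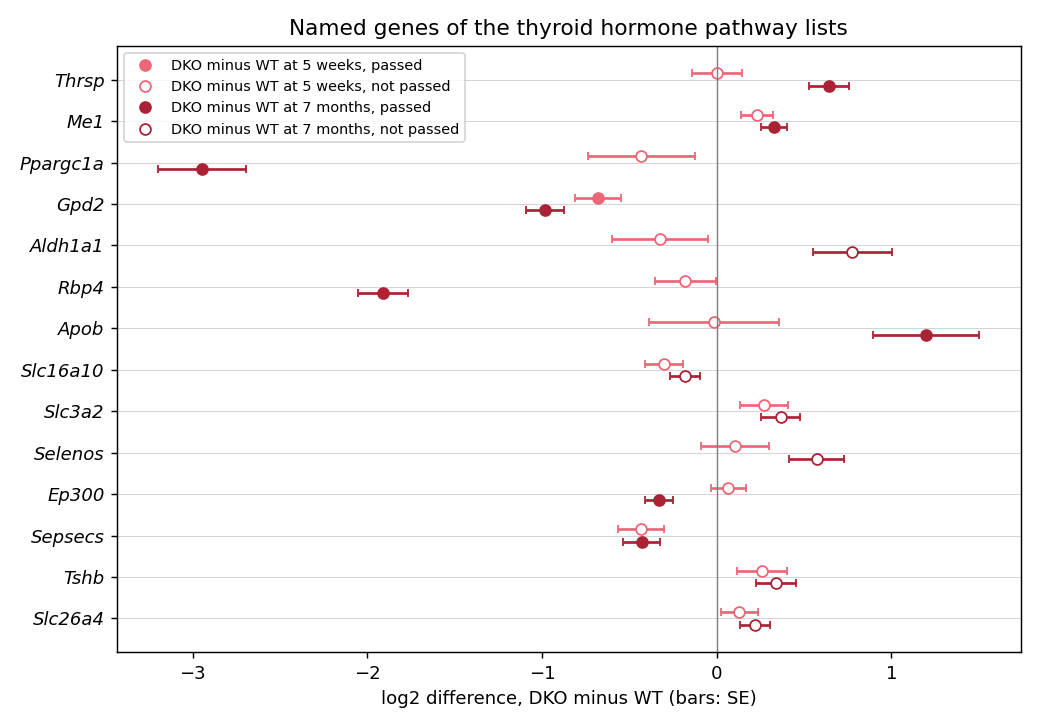
Differences in log2 signal between DKO and WT islets (x axis) at 5 weeks (light) and 7 months (dark) for the named genes of the pathway lists (y axis); points are model values, bars their SE, and filled points passed at an adjusted p of 0.05. At 7 months Ppargc1a, Rbp4 and Gpd2 lie furthest to the left (-2.95, -1.91 and -0.98) and Apob furthest to the right (1.20), while at 5 weeks Gpd2 is the filled point.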

How the data were processed

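RNA of pancreatic islets from 14 mice was measured on a whole-transcript Affymetrix array, from 100 ng of total RNA per sample, per the labels. The deposited values are log2 signals made by the authors with RMA, per the submitters' processing notes; its version and the genome build are not given in the sources used here. RMA shares normalization over arrays and compresses dim signals. Values were used as deposited. Of 35556 probe sets, 21218 carried 1 gene symbol, 1881 several and 12457 none; the brightest with 1 symbol was taken per gene (18820 genes, of which 18790 matched RefSeq by Entrez identifier).

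The groups were compared with limma 3.58.1 (lmFit, eBayes) in R 4.3.3 in a single fit over the 14 arrays with a mean for each group, a procedure tested on simulated data. P-values were adjusted by Benjamini-Hochberg over all genes within each of 5 comparisons and judged at 0.05; ± is the SE of the model, and intervals are 95%. For single genes an exact two-sided permutation test of group labels was added. The number of arrays limits the precision. Figures were drawn with Python 3.11.15 and matplotlib 3.10.9.

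Members and lists were chosen with earlier results of these data known. Genes named are the members, the called genes of each pathway list (up to 4 by smallest p, otherwise the 2 of smallest p as not passed), the 5 most alike profiles of each called member, the 3 measured neighbours on each side, and Tlr2 and Tlr4; Atp2a2, Apoa2 and the hormone, marker and sex-linked genes were added after their values were seen. Promoter windows exist for 5 of the 6 members' symbols in the table used. Replicate numbers are shared between groups, and residuals of same-numbered arrays correlated at -0.16 to 0.16, above 0.1 in 1 of 18 pairs. The mice were not treated as paired. Whether the numbers mark a shared batch cannot be told from these correlations. Alternatives tried were a fit of the compared arrays alone, a trended robust prior, dim genes left out, mean of probe sets, repeated quantile normalization, median centring, all probe sets, the replicate number, the label number 5 or 7 or the acinar level in the model, array weights, and each array left out in turn.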

Additional observations from a re-analysis of the deposited data

Results flagged for a closer look

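Single arrays stood apart in their group for 5 of the 60 gene and group pairs looked at, and chance alone sets about 5% of such groups apart. Dio3 read 2.29 in WT replicate 2 at 7 months, against 1.90 to 1.96 in the other 3 arrays, and 2.71 in DKO replicate 1 at 7 months, against 1.87 to 1.98. Ppargc1a read 6.00 in WT replicate 2 at 5 weeks, against 6.30 to 6.32. Gpd2 read 8.97 in WT replicate 1 at 7 months, against 8.70 to 8.71. Thrsp read 5.21 in WT replicate 3 at 7 months, against 4.80 to 4.86.

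The difference between genotypes changed with time, by limma's interaction test, for 2 pathway genes: Ppargc1a at -2.52 (adjusted p = 0.0197) and Rbp4 at -1.73 (adjusted p = 0.0172). Both were lower in DKO than in WT islets in all 4 arrays at 7 months.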

How the results depend on the processing

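Of 108 counts recomputed under settings other than leaving out an array, over 10 counts of called members or pathway genes, 87 stayed within 1.5 times the main count, 21 did not and 0 reversed. For members at 7 months between genotypes the count of 1 became 0 with only the arrays compared or the acinar level in the model, and 2 with a trended robust prior, dim genes left out, repeated quantile normalization or array weights. In the interaction, 0 members became 1 with a trended robust prior, dim genes left out, median centring or array weights (Dio1, whose interaction holds the difference that chose the set; nothing is read from it). For pathway genes the count at 5 weeks became 0 with the replicate block or the acinar level. At 7 months 9 became 4 in a fit of the compared arrays alone and 15 under the trended robust prior. In WT islets over time 1 became 4 with only the arrays compared and 3 with array weights. In DKO islets over time 6 became 2 in a fit of the compared arrays alone and 10 under the trended robust prior or with dim genes left out. The interaction's 2 became 1 with the mean of probe sets or the replicate block. The replicate block changed no member's call.

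Leaving out each array in turn gave 1 to 1 member called at 5 weeks, 0 to 2 at 7 months, 1 to 1 in WT islets over time, 2 to 3 in DKO islets and 0 to 3 in the interaction. For pathway genes it gave 0 to 1, 4 to 15, 1 to 2, 2 to 7 and 0 to 3 in the same order. The count at 5 weeks fell to 0 without WT replicate 2 or 3 or either DKO array, and that of the interaction to 1 without WT replicate 1, 2 or 3 of 5 weeks or WT replicate 2 of 7 months, and to 0 without DKO replicate 1 of 5 weeks. The count in WT islets over time was 2 and that of members in the interaction 3 without DKO replicate 2 of 7 months. Where a DKO array of 5 weeks was left out, the remaining one was taken to have the spread of the other groups. The member called at 5 weeks was Dio1, whose difference there chose the set. Dio1 also enters the member counts in DKO islets over time and in the interaction. Nothing is read from the member counts of these comparisons under any setting. Dio2 and Dio3, below the array median throughout, are the members whose values the signal limits most.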
